A study of Rattus norvegicus with 12 samples.

Results

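Rapamycin is an inhibitor of mTOR, the kinase that couples nutrient and growth factor signals to protein synthesis and autophagy. The data described here are the serum extracellular vesicle (EV) small RNA libraries of rats that received rapamycin after a needle-induced Achilles tendon injury, at day 21 against day 7 post-injury. All libraries whose labels gave rapamycin as the treatment were taken, which gave 6 of the 12 in the series, 3 at each timepoint. The rats were wild-type female Wistar, 12 weeks old, and the left Achilles tendon of each was injured. Rapamycin was injected intraperitoneally at 2 mg/kg, and day 7 rats had received 5 injections and day 21 rats 19. The remaining libraries came from injured rats given the injection vehicle alone, 3 at each timepoint with the same numbers of injections. The study's description of this vehicle does not name the DMSO in which rapamycin was first dissolved. Time since injury, number of injections and age rose together and cannot be told apart, and no serum from an uninjured or untreated rat was part of the comparison. GEO's labels name tendon as the tissue, but the RNA came from serum EVs that were isolated by size exclusion, and the study did not characterise the EVs further. The labels give biological replicates. The edgeR p-values use a spread estimated across miRs and over all groups in the fit. They therefore do not measure how closely the libraries agreed for a single miR.

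MicroRNAs (miRs) are short RNAs that repress mRNAs matching their seed, the bases 2 to 8 from the 5′ end. Many are made largely by a single cell type, such as miR-122 by hepatocytes and miR-451 by red cell precursors, and they enter blood inside EVs, bound to proteins or from cells that lyse. A miR level in an EV preparation therefore reports the mixture of tissues and blood cells that released it. The level is a share of the miR counts in a library. From the share alone, a smaller input of that miR and a larger input of the others cannot be told apart. Calibrator spike-ins added to the RNA give a second scale, which is used below.

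The table lists 426 miRs, and 385 of these were matched by name to a mature sequence in RefSeq (assembly GRCr8), including 34 of the 41 miRs chosen for description. The sequences below belong to the miRs that differed between the timepoints, to the relative that shares a seed with one of them, and to the main red cell miR. Capitals mark the seed.

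miR-122-5p: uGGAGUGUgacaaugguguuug
miR-378a-3p: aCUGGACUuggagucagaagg
miR-192-5p: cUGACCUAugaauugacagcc
miR-218a-5p: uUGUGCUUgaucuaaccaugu
miR-196b-5p: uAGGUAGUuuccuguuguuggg
miR-196a-5p: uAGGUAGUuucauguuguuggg
miR-451-5p: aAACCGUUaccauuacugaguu

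The genes of these miRs lie apart in the genome, and no seed is shared among the miRs that were lower at day 21 for which a sequence was found. Mir378 lies within Ppargc1b, which encodes a coactivator of mitochondrial genes. The copies of miR-218a lie within Slit3 and within Slit2, genes for axon guidance ligands. Mir194-2 lies within 10 kb of Mir192, and Mir144 within 10 kb of Mir451a. No sequence was found under the names miR-30b-5p, miR-99a-5p, miR-150-5p, miR-200a-3p, miR-383-5p, miR-486 and miR-802-5p.

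The study's read table lists 10 of the 12 libraries. It leaves out, with no reason given, replicate 2 of rapamycin day 7 and replicate 1 of vehicle day 7. Each result below comes from the 10 listed libraries unless all 12 are named. The total of miR counts was 32542 and 22355 in the listed day 7 rapamycin libraries, 51431 in the unlisted one, and 16327, 22736 and 23822 at day 21. Synthetic spike-ins took 53.8% and 61.8% of all counts in the listed day 7 libraries, 24.3% in the unlisted one and 59.0% to 71.8% at day 21. The unlisted library thus stood apart, with 5.53 miR counts per calibrator spike-in count against 0.686 to 1.501 in the other rapamycin libraries. On the log2 scale, the day 21 minus day 7 difference in miR counts per calibrator count was -0.46 in the 5 listed libraries (p = 0.4 in a two-sided exact permutation test, or 0.5 adjusted over the 4 depth measures) and -1.18 in all 6 (p = 0.2, adjusted p = 0.267). With 3 libraries against 2 or 3, the smallest p this test allows is 0.1. A miR with 3 counts stood at 58.3 to 184 CPM, where CPM is the count scaled to a library total of 1000000 miR counts. Since the reads carried no molecular identifiers, limits and intervals drawn from counts cover counting error only.

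Under rapamycin, 4 miRs were differentially expressed (DE) between day 21 and day 7 in the 10 listed libraries, and all 4 were lower at day 21. They were miR-122-5p, made mainly by hepatocytes, and miR-192-5p, made in liver and in gut and kidney epithelium. The others were miR-378a-3p, which is abundant in muscle, brown fat and liver, and miR-30b-5p, a member of the widely expressed miR-30 family. The calls were 1.37% of the 292 miRs above the abundance cutoff, and no miR was called higher. Of 365 miRs in the fit, 19 (5.21%) had an unadjusted p under 0.05, 12 lower and 7 higher at day 21. In all 12 libraries 9 DE miRs (5.84% of 154 above the cutoff) were found, the same 4 and 5 more, and 24 of 426 (5.63%) had an unadjusted p under 0.05. Of these, miR-200a-3p, miR-218a-5p, miR-99a-5p and miR-802-5p were lower and miR-196b-5p was higher at day 21, which made 8 lower (5.19%) and 1 higher (0.649%). From the 10 libraries, leaving out rapamycin day 21 replicate 2 raised the count to 26, leaving out day 21 replicate 3 raised it to 9, and leaving out day 7 replicate 3 lowered it to 1. Calls of DE used edgeR's quasi-likelihood test and the Benjamini-Hochberg adjusted p, with 0.05 as the limit.

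**Figure D1:**
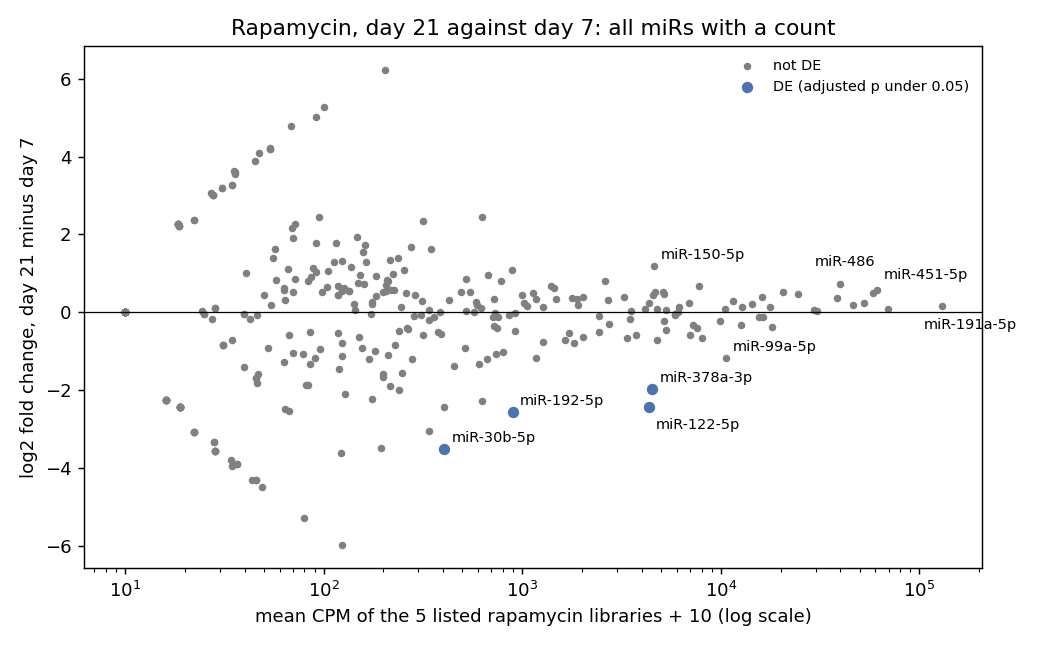
Each of 365 miRs by its mean level in the 5 listed rapamycin libraries (CPM + 10, log scale) and its log2 fold change, day 21 minus day 7, from the fit to 10 libraries. The 4 DE miRs lie below the line of no change, and the points that fan out at the left are miRs of few counts, most of them listed at 0 in all libraries of 1 timepoint.

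The lowest p was that of miR-122-5p, the most abundant miR of the hepatocyte. It had 289 and 183 counts in the listed day 7 libraries (8881 and 8186 CPM), and 6, 96 and 0 counts at day 21 (367, 4222 and 0 CPM). The unlisted day 7 library lay with the listed ones at 468 counts (9100 CPM). All day 7 libraries were above all day 21 libraries, but replicate 2 held nearly all of the day 21 counts and the SD at day 21 exceeded the mean. The mean was 8533 ± 491 CPM (SD, n = 2) at day 7, or 8722 ± 477 CPM (SD, n = 3) with the unlisted library, and 1530 ± 2339 CPM (SD, n = 3) at day 21. A count of 0 in day 21 replicate 3 allows a level of up to 126 CPM. The log2 fold change was -2.43 (SE 0.46, edgeR adjusted p = 4.62e-05) and -2.43 (SE 0.55, edgeR adjusted p = 0.00154) in all 12 libraries. The call held without any 1 library, with log2 fold changes from -5.62 to -1.92. An exact permutation test of the single level gave p = 0.2 in the 5 listed libraries and p = 0.1 in all 6.

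miR-192-5p followed the same order of libraries, with 37 and 55 counts at day 7 (1137 and 2460 CPM) and 0, 19 and 0 counts at day 21 (0, 836 and 0 CPM). The unlisted library had 89 counts (1730 CPM). The timepoints did not overlap, and again replicate 2 held every day 21 count. Its log2 fold change was -2.57 (SE 0.74, edgeR adjusted p = 0.0498) and -2.53 in all 12 libraries (SE 0.75, edgeR adjusted p = 0.0190). The call was lost without day 7 replicate 3 (log2 fold change -2.10, edgeR adjusted p = 1), without day 21 replicate 1 (-2.05, 0.446) or without day 21 replicate 3 (-2.04, 0.0814). Its cluster partner miR-194-5p had 0 to 6 counts in each rapamycin library, too few to compare.

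For miR-378a-3p the listed day 7 libraries had 137 and 277 counts (4210 and 12391 CPM) and the unlisted one 632 (12288 CPM). At day 21 the counts were 21, 89 and 19 (1286, 3914 and 798 CPM). The timepoints did not overlap, but day 7 replicate 1 stood close to day 21 replicate 2. On the log2 scale the fold change was -1.96 (SE 0.45, edgeR adjusted p = 0.00190), and -2.13 (SE 0.53, edgeR adjusted p = 0.00315) in all 12 libraries. Without day 7 replicate 3 it was -1.15 and no longer called (edgeR adjusted p = 1). The other arm of this precursor, miR-378a-5p, had 1 count at day 7 in the listed libraries and 0 at day 21.

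miR-30b-5p rested on few reads. Its counts were 8 and 34 at day 7 (246 and 1521 CPM), 41 in the unlisted library (797 CPM), and 2, 1 and 1 at day 21 (122, 44.0 and 42.0 CPM), so every day 21 library was at or under 3 counts. Summed over the listed libraries, 42 of 54897 counts at day 7 stood against 4 of 62885 at day 21, a level 12.03-fold higher at day 7 (exact 95% interval 4.36 to 46.2). The log2 fold change was -3.51 (SE 1.03, edgeR adjusted p = 0.0498), and -3.48 (SE 1.00, edgeR adjusted p = 0.0164) in all 12 libraries. The call was lost without day 7 replicate 3 (log2 fold change -1.84, edgeR adjusted p = 1).

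These 4 calls were not made by every filter and test. The abundance cutoff of the main fit was the one that gave the most calls. Without a cutoff, miR-122-5p and miR-378a-3p were called, and miR-192-5p and miR-30b-5p were not. With a count filter (edgeR's filterByExpr) 0 miRs were called and 7 were under 0.05 before adjustment. In that fit miR-122-5p had an unadjusted p of 0.111 and miR-378a-3p of 0.0175 with edgeR. The Wald test of DESeq2 called 0 miRs, with 11 under 0.05 before adjustment. For limma-voom these numbers were 0 and 28. The direction of all 4 was the same in each of these fits.

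**Figure D2:**
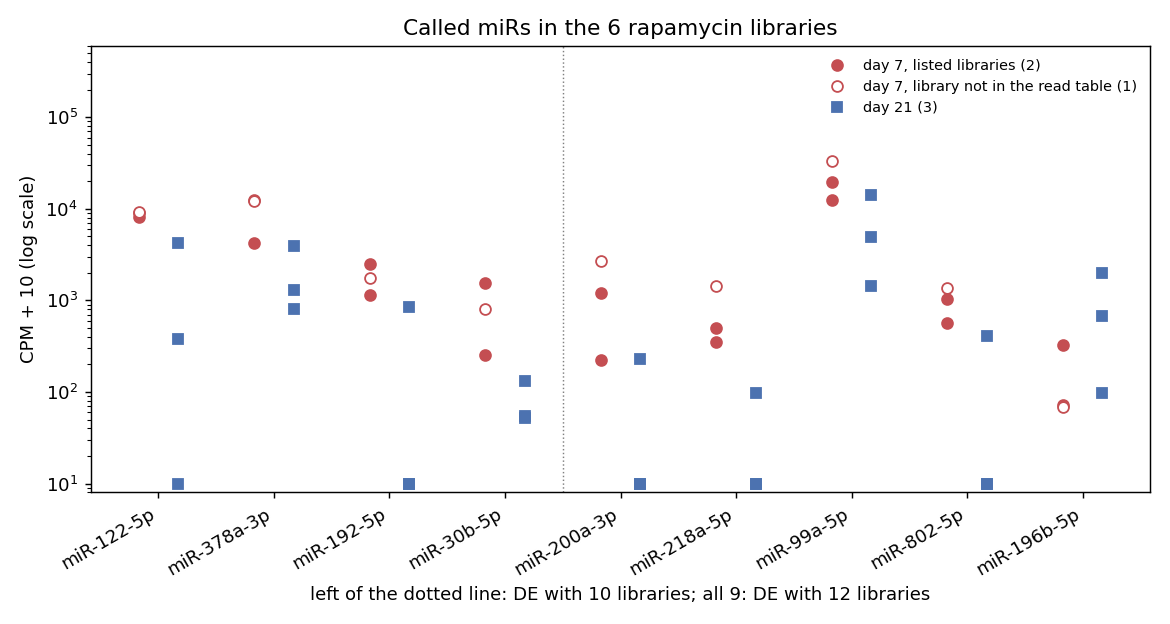
Levels (CPM + 10, log scale) of the 9 DE miRs in each rapamycin library, with day 7 as circles (open for the unlisted library) and day 21 as squares. Points at 10 are libraries with 0 counts, and for miR-122-5p, miR-192-5p and miR-802-5p the highest day 21 point is replicate 2.

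The 5 miRs that were added with all 12 libraries had the same sign in the 10 listed ones. The epithelial miR-200a-3p, which restrains the transition to mesenchyme, had 7 and 27 counts in the listed day 7 libraries (215 and 1208 CPM), 139 in the unlisted one (2703 CPM), and 0, 5 and 0 at day 21 (0, 220 and 0 CPM). The listed libraries overlapped, and the unlisted one was the highest. Its log2 fold change was -3.04 (SE 1.10, edgeR adjusted p = 0.242) in the 10 libraries and -3.91 (SE 0.92, edgeR adjusted p = 0.00163) in all 12.

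miR-218a-5p had 11 and 11 counts at day 7, 74 in the unlisted library and 0, 2 and 0 at day 21, with log2 fold changes of -3.47 (SE 1.46, edgeR adjusted p = 0.449) and -4.29 (SE 1.21, edgeR adjusted p = 0.0161). miR-802-5p, a liver and pancreas miR linked to glucose metabolism, had 18 and 23 counts at day 7, 70 in the unlisted library and 0, 9 and 0 at day 21. Its log2 fold change was -2.43 (SE 1.06, edgeR adjusted p = 0.468) in the 10 libraries and -2.68 (SE 0.90, edgeR adjusted p = 0.0489) in all 12. For both miRs the timepoints did not overlap, and replicate 2 held all day 21 counts.

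miR-99a-5p, which targets Mtor itself, was the most abundant of the 9. It stood at 12568 and 19772 CPM in the listed day 7 libraries, 33618 CPM in the unlisted one, and 4900, 14251 and 1427 CPM at day 21. Day 21 replicate 2 lay above day 7 replicate 1, so the timepoints overlapped. The log2 fold change was -1.18 (SE 0.39, edgeR adjusted p = 0.135) in the 10 libraries and -1.54 (SE 0.49, edgeR adjusted p = 0.0361) in all 12. The unlisted libraries were not needed for a call, since the 10 libraries gave an edgeR adjusted p of 0.0493 with RLE size factors and 0.0495 with plain library totals. The abundance cutoff was set anew in each fit, so the number of miRs adjusted over can differ. With 1 of the 10 libraries left out at a time, miR-99a-5p was called 7 times of 10, against 2 for miR-200a-3p, 2 for miR-196b-5p, 1 for miR-802-5p and 0 for miR-218a-5p.

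The 1 miR that was higher at day 21, miR-196b-5p, is encoded in the HOXA cluster. Its counts were 2 and 7 at day 7, 3 in the unlisted library and 32, 2 and 16 at day 21. Replicate 2 of day 21 lay within the day 7 range in CPM. Over the listed libraries 9 counts at day 7 stood against 50 at day 21, a level 4.85-fold higher at day 21 (exact 95% interval 2.36 to 11.2). The log2 fold change was 2.44 (SE 0.90, edgeR adjusted p = 0.252) and 2.86 in all 12 libraries (SE 0.89, edgeR adjusted p = 0.0305). miR-196a-5p, which has the same seed, had 0 counts in both listed day 7 libraries, 2 in the unlisted one and 7 at day 21, all in replicate 3.

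**Figure D3:**
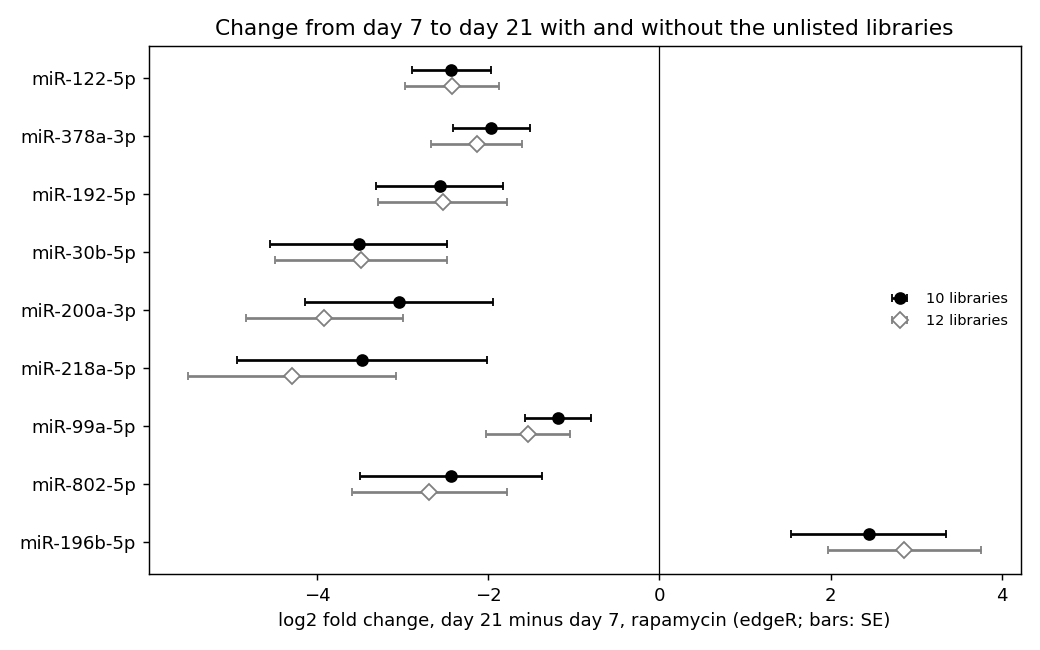
Log2 fold change, day 21 minus day 7, of the 9 DE miRs under rapamycin with SE bars, from 10 libraries (black) and from 12 (open grey). Each miR kept its sign, and the values for miR-122-5p were both -2.43.

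Among liver miRs, 15 were in the table and 13 of them had a negative log2 fold change, with a median of -1.67 where the median of all 365 miRs was 0. The fitted value of a miR with 0 counts at a timepoint depends on the prior count. With 3 counts over the timepoint taken in place of 0, and leaving out miRs at or under 3 counts at both, the median was -1.11 over 13 liver miRs and 0.10 over 257 of all miRs. Counted that way, 11 of the liver miRs were negative and 2 positive, against 115 and 142 over all miRs. In the 10 libraries 2 of the 15 were called lower and 0 higher, and 3 were called lower in all 12, where the median was -1.98. Over all miRs above the cutoff, 4 of 292 (1.37%) were called lower in the 10 libraries and 8 of 154 (5.19%) in all 12. These shares over all miRs also apply to the lists below. The other arm of the miR-122 hairpin, miR-122-3p, had 33 and 32 counts at day 7, 48 in the unlisted library and 0, 6 and 9 at day 21, with a log2 fold change of -2.26 (SE 0.85, edgeR adjusted p = 0.252). The most abundant member, miR-21-5p, is also made in many other tissues and stood at 63856 and 78909 CPM at day 7 and 78275, 45259 and 80304 CPM at day 21. Its log2 fold change was 0.09 (SE 0.28, edgeR adjusted p = 0.95). It made up most of the summed level of the list, which was 88532 and 106598 CPM at day 7, 81585 CPM in the unlisted library and 64655 to 86055 CPM at day 21. miR-22-3p had a log2 fold change of -0.71 (SE 0.43, edgeR adjusted p = 0.923).

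The 10 red cell miRs went the other way, with 9 positive log2 fold changes and a median of 0.76 (0.98 in all 12 libraries, and 0.65 with 3 counts in place of 0), and 0 of the 10 were called. Their summed level was 145228 and 135853 CPM in the listed day 7 libraries, 76433 CPM in the unlisted one, and 186195, 152489 and 195030 CPM at day 21. Every day 21 library was above every day 7 library. None of the 10 was at 0 in all rapamycin libraries, and the defining miR-451-5p was among the most abundant miRs of the table. It stood at 53070 and 47998 CPM at day 7, 27551 CPM in the unlisted library and 63453, 59861 and 81060 CPM at day 21. The log2 fold change was 0.59 (SE 0.29, edgeR adjusted p = 0.705), and 0.76 in all 12 libraries (SE 0.46, edgeR adjusted p = 0.443). miR-486 had a log2 fold change of 0.72 (SE 0.31, edgeR adjusted p = 0.467).

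The ratio of miR-451-5p to miR-23a-3p, a pair used to gauge lysis of red cells in serum, was on the log2 scale 1.69 and 1.37 at day 7, 0.27 in the unlisted library and 2.15, 1.27 and 2.54 at day 21. Day 21 replicate 2 had the lowest ratio of its timepoint and the most miR-122-5p counts, and replicate 3 had the highest ratio and 0 miR-122-5p counts. The unlisted library had the lowest ratio of all and 468 miR-122-5p counts. The order did not hold throughout. Day 21 replicate 2 had a lower ratio than both listed day 7 libraries and fewer miR-122-5p counts (96 against 289 and 183). Between the listed day 7 libraries, the higher ratio went with more miR-122-5p counts. The part of red cell miRs in the lower liver shares at day 21 was not tested. The direction of the red cell miRs held relative to the other miRs only. With the calibrator spike-ins as the scale, the median of all miRs moved to -0.30, miR-451-5p to -0.04 and miR-486 to -0.02, while miR-122-5p stood at -2.75 and the 4 DE miRs were called as before.

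**Figure D4:**
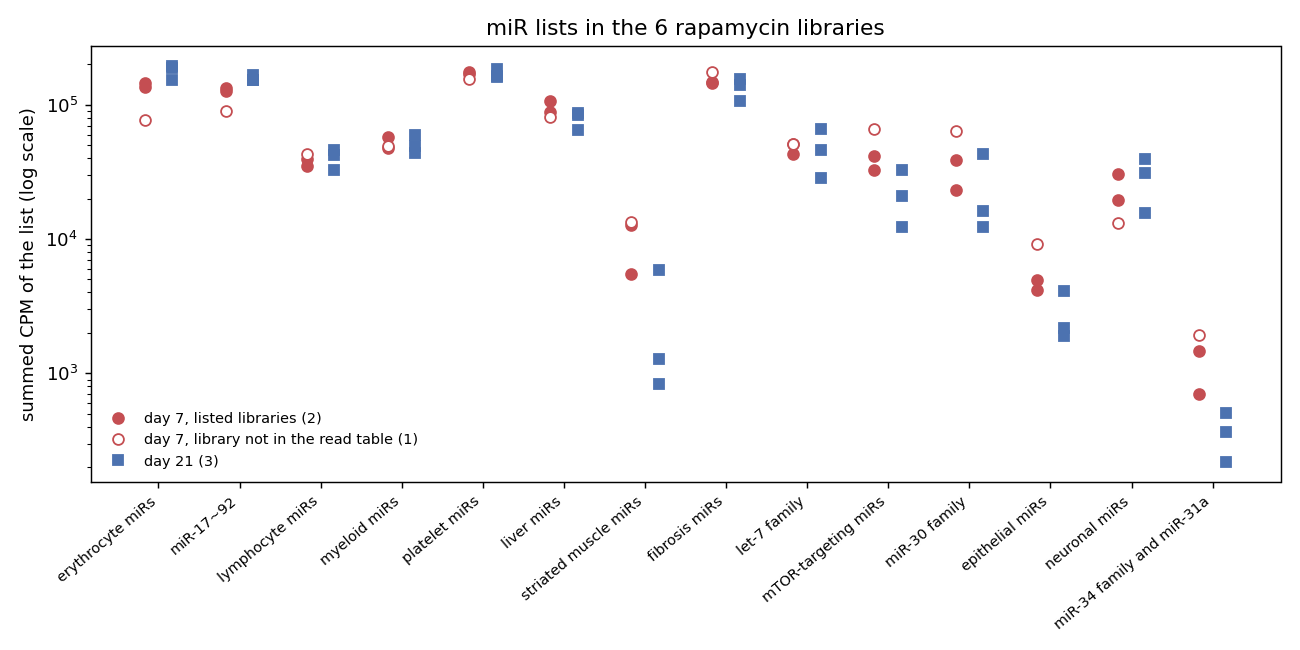
Summed CPM (log scale) of 14 miR lists in each rapamycin library, with day 7 as circles (open for the unlisted library) and day 21 as squares. All red cell sums are higher at day 21, from 152489 to 195030 CPM, and the miR-34 family with miR-31a is lower at day 21 in every library.

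Other blood cell lists held no call. Of 17 lymphocyte miRs, 0 were called and 11 had a positive log2 fold change, with a median of 0.39. miR-150-5p, a miR of mature lymphocytes, stood at 3442 and 2147 CPM at day 7, 2158 CPM in the unlisted library and 11270, 1451 and 4618 CPM at day 21. The timepoints overlapped through day 21 replicate 2, and the log2 fold change was 1.19 (SE 0.43, edgeR adjusted p = 0.242). This fell to 0.34 without day 21 replicate 1 (edgeR adjusted p = 0.938). The 14 myeloid and pan-leukocyte miRs had a median of 0.13 and the 11 platelet and vascular miRs of -0.12, with 0 calls in each. miR-146a-5p, which dampens NF-kB signalling, stood at 1352 and 2147 CPM at day 7, 1419 CPM in the unlisted library and 1041, 880 and 882 CPM at day 21, with no overlap and a log2 fold change of -0.76 (SE 0.61, edgeR adjusted p = 0.923). Of 19 miRs of the miR-17~92 and paralogous clusters, which promote proliferation, 14 had a positive log2 fold change and 0 were called. Their median was 0.36, and miR-92a-3p had 0.49 (SE 0.29, edgeR adjusted p = 0.923).

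Lists tied to the injury and the drug gave few calls. The list of miRs that target mTOR pathway genes was matched by name and took in both arms of a hairpin, such as miR-99a-3p beside miR-99a-5p. The arms differ in seed, so not every member need target such genes. Of its 11 miRs, 8 had a negative log2 fold change and the median was -0.46. None was called in the main fit to the 10 libraries. A single member, miR-99a-5p, was called in all 12. It was also called in the 10 with RLE size factors, library totals or the replicate number as a block. Its relatives miR-99b-5p and miR-100-5p, members of the same family, had log2 fold changes of -0.49 (SE 1.05) and -0.46 (SE 0.65). Of 13 fibrosis and fibroblast miRs, 0 were called and the median was -0.42. The scar-associated miR-214-3p had 8 and 6 counts at day 7, 12 in the unlisted library and 0, 1 and 0 at day 21, with a log2 fold change of -3.61 (SE 1.70, edgeR adjusted p = 0.637). For the let-7 family, 17 miRs had a median of 0.21 with 0 calls, and the most abundant, let-7i-5p, had a log2 fold change of 0.05 (SE 0.31, edgeR adjusted p = 1). The 37 Dlk1-Dio3 cluster miRs were scarce, and 17 of them had no count in any rapamycin library. With 3 counts in place of 0, the medians of these lists were -0.48 for mTOR, -0.42 for fibrosis and 0.27 for let-7, over 10, 9 and 13 miRs.

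The 10 miR-30 family members had a median log2 fold change of -0.32, and miR-30b-5p was the 1 call. The most abundant, miR-30a-5p, stood at 12138 and 17446 CPM at day 7, 34921 CPM in the unlisted library and 8085, 19529 and 5625 CPM at day 21. The timepoints overlapped and the log2 fold change was -0.33 (SE 0.37, edgeR adjusted p = 0.95). Among 11 striated muscle miRs, miR-378a-3p was the only call, and it is not restricted to muscle. The muscle-restricted miR-206-3p and miR-133b-3p had 0 counts in every rapamycin library. miR-133a-3p had 38 and 7 counts at day 7, 46 in the unlisted library and 0, 45 and 1 at day 21, and its log2 fold change of -0.11 (SE 0.86) was small beside that spread.

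The stress-responsive miR-34 family and miR-31a comprised 8 miRs, of which 5 entered the fit and 4 had a negative log2 fold change. miR-31a-5p had 5 and 16 counts at day 7, 26 in the unlisted library and 1, 3 and 2 at day 21. Its log2 fold change was -2.0 (SE 1.03, edgeR adjusted p = 0.751). miR-34a-5p had 13 and 10 counts at day 7, 37 in the unlisted library and 4, 2 and 4 at day 21, with a log2 fold change of -1.20 (SE 0.87, edgeR adjusted p = 0.923). Neither overlapped between timepoints and neither was called. Of 13 epithelial and endocrine miRs, 7 had a negative log2 fold change, the median was -0.38, and 0 were called in the 10 libraries against miR-200a-3p in all 12. Of 15 neuronal miRs, 5 had no count in any rapamycin library and 0 were called. miR-128-3p stood at 26520 and 16372 CPM at day 7, 7894 CPM in the unlisted library and 29950, 13635 and 35471 CPM at day 21, with a log2 fold change of 0.47 (SE 0.31, edgeR adjusted p = 0.923). Of the 10 miRs that the study called between treatments, a list chosen on these samples, miR-122-5p was called over time in the 10 libraries and miR-122-5p and miR-99a-5p in all 12.

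A minimum of 10 counts in every listed rapamycin library left 77 miRs. Of these, 16 (20.8%) had no overlap between timepoints, 11 (14.3%) higher and 5 (6.49%) lower at day 21. With the unlisted library it was 15 of 77 (19.5%), 8 (10.4%) higher and 7 (9.09%) lower. The labels can be arranged in only 10 ways with 5 libraries and 20 ways with 6. No overlap can therefore arise often without any difference, and these shares were not tested. Without TMM scaling 7 were higher and 8 lower in the 5 libraries, so the split between directions depended on the scale. miR-339-5p and miR-383-5p were the highest changes of this set apart from miR-150-5p. miR-339-5p stood at 461 and 671 CPM at day 7, 797 CPM in the unlisted library and 1102, 1012 and 1133 CPM at day 21, and its log2 fold change was 1.09 (SE 0.71, edgeR adjusted p = 0.923). The most abundant miR, miR-191a-5p, hardly differed, at 125837 and 129099 CPM at day 7 and 114657, 143737 and 133490 CPM at day 21 (log2 fold change 0.17, SE 0.25, edgeR adjusted p = 0.95). In the unlisted library it stood at 73885 CPM. None of the 10 most abundant miRs was called, and their log2 fold changes ran from 0.05 for let-7i-5p to 0.72 for miR-486. Those of miR-26a-5p, miR-16-5p, miR-19b-3p and miR-103-3p lay in that range, at 0.18, 0.24, 0.36 and 0.08. The remaining miRs selected from the lists were not called either. Their log2 fold changes were 0.81 for miR-144-5p, 0.69 for let-7f-5p, 0.47 for miR-142-3p, 0.13 for miR-23a-3p, 0.10 for let-7c-5p, -0.11 for miR-181a-5p, -0.71 for miR-203a-3p and -1.08 for miR-222-3p. miR-341 and miR-382-5p had 0 to 8 counts in each rapamycin library.

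Vehicle libraries gave the same contrast without the drug and, as the vehicle is described, without its DMSO. The log2 fold change of miR-122-5p was -0.56 (SE 0.46) with vehicle and -2.43 with rapamycin, and the difference of -1.87 (SE 0.66) had an unadjusted p of 0.00455 and an adjusted p of 0.415 with edgeR. The study called miR-122-5p higher with rapamycin than with vehicle at day 7, and the day 7 levels enter this difference. For miR-378a-3p the vehicle value was -0.01 (SE 0.45) and the difference -1.95 (SE 0.65, edgeR unadjusted p = 0.00250, adjusted p = 0.415). For miR-192-5p the vehicle value was -0.26 (SE 0.72) and the difference -2.30 (SE 1.05, edgeR unadjusted p = 0.0282). For miR-30b-5p the vehicle value was -1.30 (SE 0.89) and the difference -2.21 (SE 1.38, edgeR unadjusted p = 0.110). None of these differences was called in the main fit to the 10 libraries (TMM, a mean per group). They were not called with filterByExpr, DESeq2, limma-voom or the calibrators either. The unadjusted p for miR-122-5p was 0.377 with filterByExpr (edgeR), 0.424 with DESeq2 and 0.0975 with limma-voom. For miR-378a-3p these values were 0.0785, 0.0273 and 0.0481. Some differences were called under other settings. With the replicate number as a block in the 10 libraries, 2 were called. These were miR-122-5p (-3.19, edgeR adjusted p = 0.0379) and miR-378a-3p (-2.48, edgeR adjusted p = 0.0489). For miR-378a-3p the edgeR adjusted p was 0.0368 with RLE size factors, 0.0488 with library totals and 0.0487 with the unlisted rapamycin library added. For miR-122-5p it was 0.0496 with RLE size factors, 0.0486 without vehicle day 21 replicate 1 and 0.0205 without vehicle day 21 replicate 2. These adjusted p-values were taken over different numbers of miRs, since the abundance cutoff was set anew in each fit. The edgeR unadjusted p of miR-122-5p was 0.00455 in the main fit and 0.00240 with RLE size factors. Without rapamycin day 21 replicate 2, which held most of the day 21 counts of this miR, the difference for miR-122-5p was -5.02 (edgeR adjusted p = 1.11e-10). In that fit miR-378a-3p was at -2.86 and miR-192-5p at -8.39, and both were called. The call for miR-378a-3p was also made without rapamycin day 7 replicate 1 and without vehicle day 21 replicate 1 or 2, and the difference for miR-30b-5p was called in none of the fits run. In all 12 libraries the differences were smaller for 3 of them, at -1.16 for miR-122-5p, -0.72 for miR-378a-3p and -1.86 for miR-192-5p, with unadjusted edgeR p-values of 0.118, 0.321 and 0.0664, and -2.20 for miR-30b-5p with 0.0909. Without vehicle day 21 replicate 3 the difference for miR-122-5p was -0.36 (edgeR unadjusted p = 0.617).

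**Figure D5:**
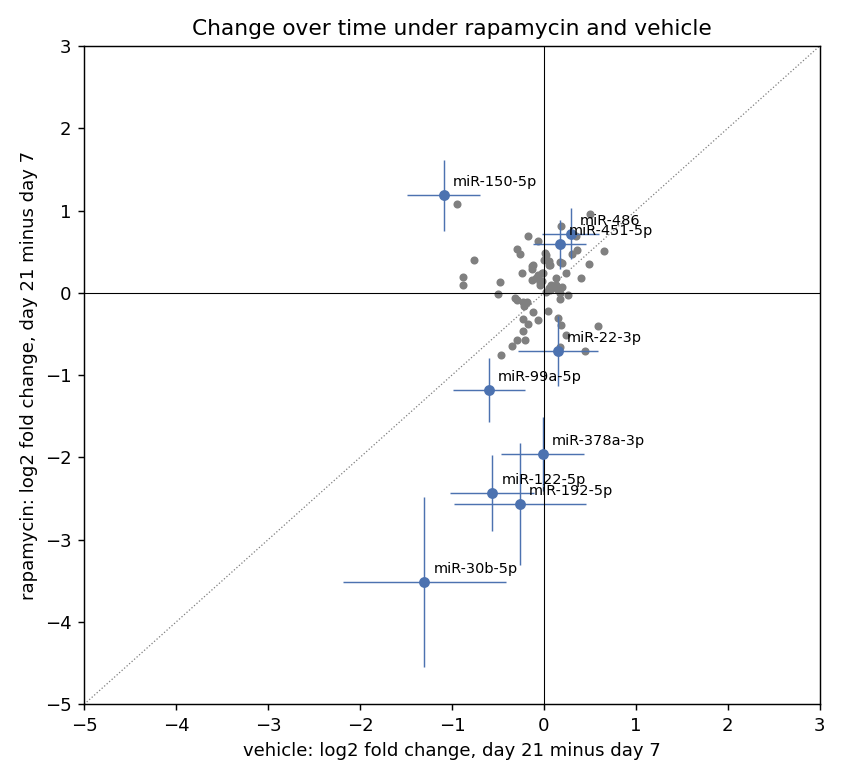
Log2 fold change, day 21 minus day 7, with vehicle (x) against rapamycin (y) from the fit to 10 libraries, for the 77 miRs that reached 10 counts in every listed rapamycin library (grey) and 9 named miRs with SE bars (blue). The dotted line marks equal changes. miR-378a-3p lies at -0.01 with vehicle and -1.96 with rapamycin, and miR-150-5p lies in the upper left.

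For 1 miR, 0.274% of 365 tested, the change over time was called different between treatments, and 13 had an unadjusted p under 0.05. miR-150-5p had a log2 fold change of 1.19 (SE 0.43) with rapamycin and -1.09 (SE 0.40) with vehicle, a difference of 2.28 (SE 0.59, edgeR adjusted p = 0.0406). The study called it lower with rapamycin than with vehicle at day 7, and the day 7 levels enter this difference. With vehicle it stood at 8886 and 12726 CPM at day 7 in the listed libraries, 1795 CPM in the unlisted one and 4233, 6133 and 4714 CPM at day 21. The listed vehicle libraries did not overlap between timepoints, whereas the rapamycin libraries did. In all 12 libraries the difference was 1.90 (edgeR unadjusted p = 0.00867, adjusted p = 0.849), and it was also not called without rapamycin day 21 replicate 1, rapamycin day 7 replicate 3 or vehicle day 7 replicate 3. The call was lost too with filterByExpr (edgeR adjusted p = 0.956), with at least 10 counts in every library (0.933), with calibrator scaling (1), with DESeq2 (adjusted p = 0.99) and with limma-voom (adjusted p = 0.865). The difference was above 0 in each of these fits.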

How the data were processed

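Small RNA of serum EVs was sequenced in 12 libraries, and the authors deposited 1 table of raw counts per mature miR and per synthetic spike-in. Per the labels and the study's methods, adapters were trimmed with cutadapt 3.3, reads were mapped with Bowtie 1.3.0 to the rat genome and assigned to miRBase miRs, and no unique molecular identifiers were used. Spike-in rows were left out of miR totals. All 12 count columns were matched to samples by the labels.

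Counts were fitted with edgeR 4.0.16 in R 4.3.3 (TMM, quasi-likelihood, a mean per group, two-sided), with DESeq2 1.42.0 and limma 3.58.1 as alternatives. The 10 libraries in the study's read table were the main set and all 12 the alternative. As in the study's independent filtering, an abundance cutoff was set at whichever quantile of mean log2 CPM (0 to 0.95, step 0.01) maximised the calls, so the number above it differs between fits. SE is the absolute log2 fold change divided by the square root of F. Printed CPM values are plain shares of the miR counts of a library, and overlaps and exact permutation tests used TMM-scaled CPM (log2 of CPM plus 1). The intervals are exact Clopper-Pearson intervals on summed counts. The fit was run on counts simulated from its own estimate of the spread, with changes placed only in miRs of higher counts. That run cannot show how the fit performs for miRs of few counts or of larger scatter. Of 426 miRs, 41 were described, chosen by call, abundance, size of change and membership in 16 lists. The miRs and lists were chosen with earlier results of these data known. Replicate numbers came from the labels. Same-numbered libraries did not deviate together in every pair, so no pairing was assumed.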

Additional observations from a re-analysis of the deposited data

Results flagged for a closer look

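The change from day 7 to day 21 differed between treatments for miR-150-5p in the 10 listed libraries, where rapamycin minus vehicle was 2.28 on the log2 scale (SE 0.59, edgeR adjusted p = 0.0406). In all 12 libraries it was 1.90 and not called (edgeR adjusted p = 0.849). The 10 libraries leave out vehicle day 7 replicate 1, in which miR-150-5p stood at 1795 CPM against 8886 and 12726 CPM in the other vehicle day 7 libraries.

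In all 12 libraries the change differed for miR-133a-3p, a miR of heart and skeletal muscle, by 3.64 on the log2 scale (edgeR adjusted p = 0.0498). The level in the unlisted vehicle day 7 library was 10706 CPM, against 118 and 117 CPM in the listed ones and 34.8 to 519 CPM at day 21. In the 10 listed libraries the difference was -0.82 (SE 1.28, edgeR unadjusted p = 0.521), so the call rests on that unlisted library.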

How the results depend on the processing

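The count of DE miRs moved with the processing, and in no fit that held them did miR-122-5p, miR-378a-3p, miR-192-5p or miR-30b-5p turn higher at day 21. From 4 in the 10 listed libraries, the count went to 9 in all 12, to 11 with the unlisted rapamycin library added, to 9 with only the 6 rapamycin libraries and to 2 without the abundance cutoff. It went to 0 with filterByExpr (7 at an unadjusted p under 0.05), 0 with at least 10 counts in every library (4), 0 with DESeq2 (11) and 0 with limma-voom (28). RLE size factors and plain library totals gave 5, the calibrators 4 and only the 5 listed rapamycin libraries 3. Leaving out 1 library gave 1 to 26 calls, with 26 without rapamycin day 21 replicate 2, 9 without day 21 replicate 3 and 1 without day 7 replicate 3. Such a fit can leave a day 7 group with 1 library, which is then assumed to vary like the other groups.

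The count of miRs whose change differed between treatments went from 1 to 3 with the unlisted rapamycin library and 3 with RLE, to 2 with library totals, and to 0 with the calibrators (10 at an unadjusted p under 0.05 with edgeR), DESeq2 (6), limma-voom (16), filterByExpr (3) or at least 10 counts in every library (3). It was also 0 in all 12 libraries without the cutoff (14). Leaving out 1 library gave 0 to 10, with 10 without rapamycin day 21 replicate 2.

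With the replicate number as a block, 4 DE miRs were found in the 10 libraries, 3 of them among the 4 above with miR-99a-5p in place of miR-30b-5p, and 4 in all 12, 2 of them shared. The count for the difference between treatments was 3 with the block in 10 libraries (miR-122-5p, miR-378a-3p and miR-150-5p) and 0 in 12 (3 at an unadjusted p under 0.05 with edgeR). The deviations of same-numbered rapamycin libraries correlated at 0.32 and -0.46 in the 2 listed pairs and at 0.24, 0.42 and 0.05 with all 6, and not every library correlated best with its own number, so the numbers were not taken to pair the libraries.

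With the unlisted rapamycin library, the log2 difference between timepoints was -0.69 for total miR counts, -0.36 for the number of miRs detected, -1.18 for miR counts per calibrator count and 0.59 for the spike-in share.

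The log2 fold changes of the following miRs, none of them called with TMM in the 10 libraries, changed sign under some settings. With the calibrators as scale, under which the median of all miRs was -0.30, they were -0.39 for miR-191a-5p, -0.55 for miR-21-5p, -0.0383 for miR-451-5p, -0.14 for miR-92a-3p, -0.58 for miR-26a-5p, -0.32 for miR-16-5p, -0.20 for miR-19b-3p, -0.0217 for miR-486, -0.62 for let-7i-5p, -0.51 for miR-103-3p, -0.37 for miR-23a-3p, -0.0629 for let-7f-5p, -0.28 for miR-128-3p, -0.26 for miR-142-3p and -0.62 for let-7c-5p. With library totals they were -0.0712 for miR-21-5p, -0.12 for let-7i-5p, -0.0688 for miR-103-3p and -0.15 for let-7c-5p. For let-7i-5p and let-7c-5p they were -0.0262 and -0.0507 with RLE, -0.0265 and -0.0528 with DESeq2, and -0.0547 and -0.76 with limma-voom. For miR-26a-5p they were -0.14 in all 12 libraries, -0.0922 with the unlisted rapamycin library and -0.14 with only the 6 rapamycin libraries. With the replicate block, let-7c-5p was at -0.23 in 10 libraries and -0.27 in 12, and in 12 libraries miR-26a-5p was at -0.14, let-7f-5p at -0.0234, miR-23a-3p at -0.0048 and miR-133a-3p at 0.0130. Leaving out 1 library gave ranges of -1.93 to 0.55 for let-7c-5p, -0.20 to 0.19 for let-7i-5p, -0.0741 to 0.14 for miR-103-3p, -4.66 to 1.03 for miR-133a-3p, -0.37 to 0.0630 for miR-181a-5p, -0.14 to 0.25 for miR-21-5p, -0.21 to 0.27 for miR-23a-3p and -0.34 to 0.62 for miR-26a-5p. At the low ends, let-7c-5p was called without rapamycin day 21 replicate 3 and miR-133a-3p without day 21 replicate 2. Without the latter, let-7f-5p, miR-128-3p and miR-486 were called higher, and miR-486 also with the unlisted rapamycin library added. The cause was not tested. With totals of 16327 to 23822 miR counts at day 21, a count of 0 there allows a level of up to 126 to 184 CPM.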

Other observations

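The arms of the miR-122 hairpin did not keep the same ratio in each library. At day 7 the counts of miR-122-5p and miR-122-3p were 289 and 33 in replicate 1, 183 and 32 in replicate 3 and 468 and 48 in the unlisted replicate 2. At day 21 they were 6 and 0 in replicate 1, 96 and 6 in replicate 2, and 0 and 9 in replicate 3. The last is the only rapamycin library in which the 3p arm exceeded the 5p arm. No test was made of this pattern, which was chosen after the values were seen.

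Of the miRs with an unadjusted p under 0.05 at day 21 against day 7, miR-20a-3p had the highest log2 fold change, with 0 counts in the listed day 7 libraries, 2 in the unlisted one and 13, 4 and 0 at day 21. The fitted value depends on the prior count.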
